A study of Rattus norvegicus with 8 samples.

Results

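The prohormone processing enzymes are the proteases and modifying enzymes that turn an inactive hormone precursor into active peptides, and 9 of their genes were followed in the rat neurohypophysis: Pcsk1, Pcsk2, Cpe, Pam, Furin, Pcsk5, Pcsk6, Cpd and Qpct. They were picked by gene symbol from the 33294 genes of the deposited table, all 9 were found, and all 9 were among the 17919 genes with values high enough to test. The neurohypophysis, or neural lobe, holds the axon terminals of hypothalamic vasopressin and oxytocin neurons, glial pituicytes and dense capillaries. It was taken from male Sprague Dawley rats aged 125 days (4 libraries) or 35 days (4 libraries). No other treatment is labelled, and all animals were perfused with PBS under isoflurane before the lobe was frozen. The design asks how gene expression in the lobe changes with age. Library numbers are all that the labels give within an age, with no word on whether 1 number is 1 animal. The p-values therefore rest on spread between libraries, which limma adjusts by a trend over genes of similar level, and that spread may be technical.

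Peptide precursors are cut in the secretory granule at pairs of basic residues by the convertases PC1/3 (Pcsk1) and PC2 (Pcsk2). Carboxypeptidase E (Cpe) then trims the exposed basic residues, and peptidylglycine alpha-amidating monooxygenase (Pam) converts a C-terminal glycine into the amide that vasopressin, oxytocin and alpha-MSH all carry. Glutaminyl cyclase (Qpct) closes an N-terminal glutamine into pyroglutamate. Furin, PC5/6 (Pcsk5), PACE4 (Pcsk6) and carboxypeptidase D (Cpd) do the corresponding cutting and trimming in the Golgi and at the cell surface, for growth factors and receptors of nearly every cell type.

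The sequences before the start sites of Pcsk2, Cpe and Pam are shown because these genes encode the granule enzymes with an entry whose window holds 1 copy of the letters TGACG, the half-site of the cAMP response element bound by CREB. Sequences were from the RefSeq promoter table of build GRCr8, where 6 of the 9 genes had an entry; the 250 bases before the start site are printed 5′ to 3′ on the strand of the gene, with TGACG or its reverse complement in capitals.
Pcsk2, chr3:151333688-151333937, plus strand: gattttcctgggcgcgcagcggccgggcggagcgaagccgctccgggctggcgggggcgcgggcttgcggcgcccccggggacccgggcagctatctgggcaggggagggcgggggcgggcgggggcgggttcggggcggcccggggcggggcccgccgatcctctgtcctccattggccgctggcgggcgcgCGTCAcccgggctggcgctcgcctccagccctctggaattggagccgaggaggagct
Cpe, chr16:29796457-29796706, plus strand: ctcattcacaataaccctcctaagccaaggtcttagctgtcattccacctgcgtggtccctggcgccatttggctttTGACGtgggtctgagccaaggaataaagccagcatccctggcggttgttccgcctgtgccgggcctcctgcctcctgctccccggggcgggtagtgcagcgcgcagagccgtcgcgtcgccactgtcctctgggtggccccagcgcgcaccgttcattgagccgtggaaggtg
Pam, chr9:105570118-105570367, plus strand: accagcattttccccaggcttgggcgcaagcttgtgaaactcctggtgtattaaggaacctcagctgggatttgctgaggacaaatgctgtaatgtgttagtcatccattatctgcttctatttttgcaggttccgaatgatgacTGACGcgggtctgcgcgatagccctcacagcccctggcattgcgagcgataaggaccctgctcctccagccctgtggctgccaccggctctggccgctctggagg
The match began 57 bases before the start site in Pcsk2, 173 in Cpe and 105 in Pam, and in Pcsk2 it was on the opposite strand. Both strands were searched, and the same letters occurred in 18.2% of the 33469 windows of the same length in the table, and in none of the windows of Pcsk5, Pcsk6 and Qpct. The full palindrome TGACGTCA, in which a half-site on each strand overlaps, was in none of the 6 windows and in 1.59% of all. The GC content of the windows was 79.6% in Pcsk2, 63.2% in Cpe and 55.2% in Pam, against a median of 51.2% over the table. These matches describe letters only.

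The reads recovered from the table came to 28429133 to 58696254 per library. Markers of the labelled tissue were present: Avp, Oxt and the pituicyte genes Rax, Gfap and S100b had reads in every library. RNA of neighbouring pituitary lobes was present too. Pomc, a hormone precursor gene that intermediate lobe melanotrophs express, though not necessarily they alone, took 10.1 to 14.3% of reads at 125 days. At 35 days it took 6.44, 5.65 and 6.78% in replicates 1, 2 and 4 and 10.2% in replicate 3. The other 8 genes of the intermediate lobe list together took 0.160 to 0.184% at 125 days and 0.126 to 0.174% at 35 days, with Mc2r at or near 0. The 10 anterior lobe markers took 0.0185 to 0.140% at 125 days. At 35 days they took 0.0695% in replicate 1, 0.658% in replicate 2, 3.83% in replicate 3 and 0.439% in replicate 4, so 35-day replicate 3 stood apart, and results that rest on it are given with and without it. In such bulk samples, fewer cells of a type and less RNA per cell cannot be told apart.

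Two-sided tests with limma on log2(value + 1), adjusted over all 17919 genes by the Benjamini-Hochberg method, called 2 of the 9 enzyme genes at a threshold of 0.05, Pcsk1 and Pcsk2, both higher at 125 days. None was called lower. Over all genes tested, 17.7% were called, 8.85% higher and 8.87% lower, so the share of enzyme genes called was near that of genes in general. The median log2 change, 125 minus 35 days, was 0.31 over the 9 genes and 0.01 over all genes tested. The ages did not overlap for 3 of the 9 (Pcsk1, Pcsk2 and Pam), all with the higher values at 125 days. Over all genes tested, 24.9% did not overlap, and 13.4% did so with the higher values at 125 days. Without 35-day replicate 3, 3 of the 9 were called higher (Cpe in addition) and 1 lower (Pcsk6), where 15.9% of all genes were called higher and 14.8% lower. Together the 9 genes took 0.519, 0.456, 0.462 and 0.518% of the reads in the 4 libraries of 125 days, against 0.375, 0.367, 0.382 and 0.377% in the 4 of 35 days. Cpe, not called with all libraries, was the largest part of this total. It took 0.231 to 0.277% at 125 days and 0.183 to 0.247% at 35 days, the most of that age in replicate 3. The total therefore does not describe the 9 genes alike.

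**Figure D1:**
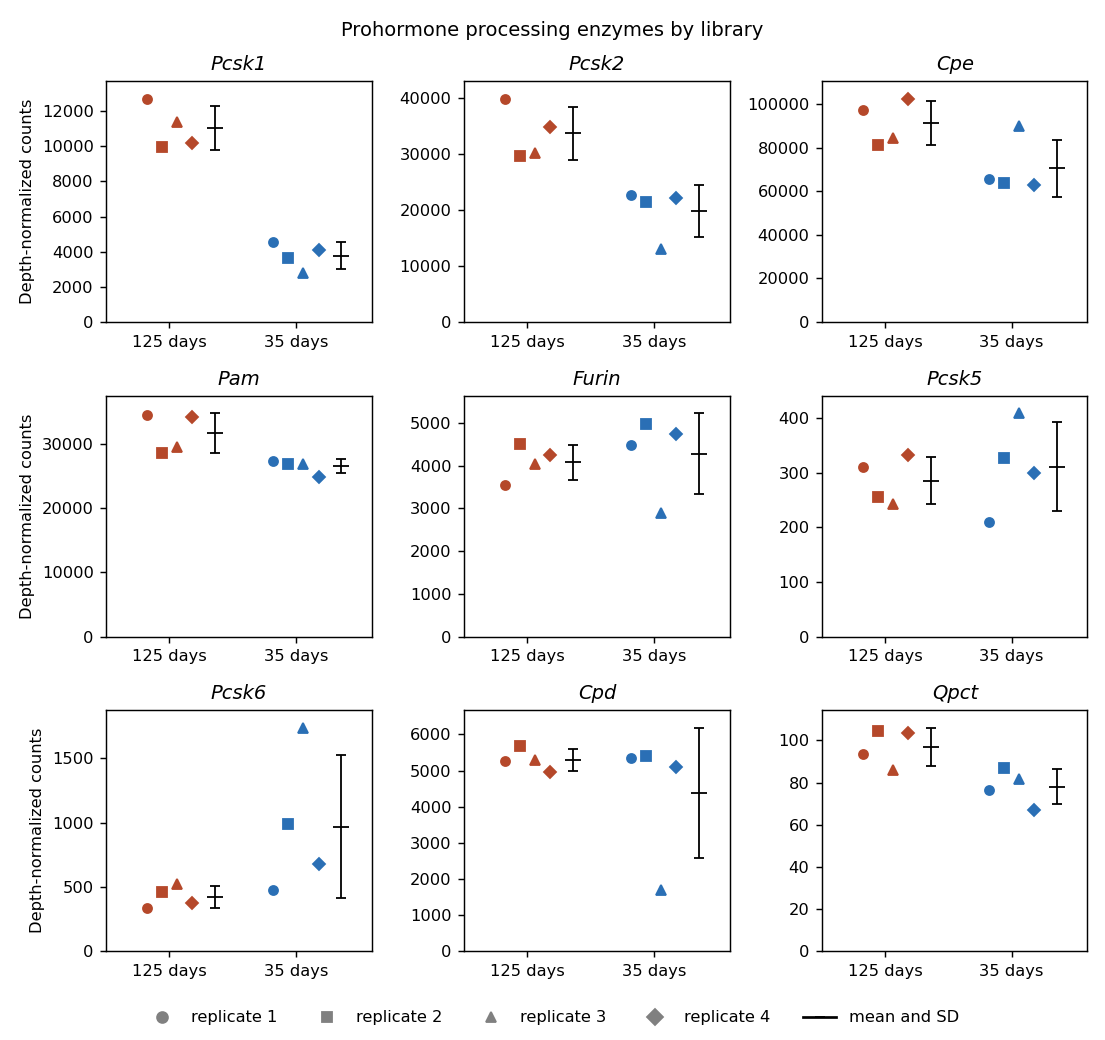
Depth-normalized counts (vertical axes, each starting at 0) of the 9 enzyme genes in the 4 libraries of 125 days (red) and the 4 of 35 days (blue); symbols mark the replicate number, and black bars give the mean and SD of each age. The ages are separate for Pcsk1, Pcsk2 and Pam, and 35-day replicate 3 (triangle) lies apart from the other 35-day libraries for Pcsk2, Cpe, Furin, Pcsk6 and Cpd.

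Pcsk1 encodes PC1/3, the convertase that makes the first cuts in many precursors. Its depth-normalized counts at 125 days were 12693, 9969, 11355 and 10157 in replicates 1 to 4, against 4545, 3645, 2781 and 4114 in replicates 1 to 4 of 35 days. Every library of 125 days lay above every library of 35 days, and the gap between the ages was wider than the range within either age. The mean was 11043 ± 1259 at 125 days and 3771 ± 756 at 35 days (SD, n = 4 each), a 2.96-fold difference. The log2 change was 1.57 (SE 0.15, limma adjusted p = 1.46e-04), with a 95% interval of 1.23 to 1.91. This call was kept in all 22 alternative fits, where the log2 change ran from 1.30 to 1.66, and without 35-day replicate 3 it was 1.43 (SE 0.10).

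Pcsk2 encodes PC2, which makes the later cuts that release, among others, alpha-MSH from the Pomc precursor. Replicates 1 to 4 had 39791, 29685, 30173 and 34859 depth-normalized counts at 125 days, against 22669, 21432, 12949 and 22190 at 35 days. The ages did not overlap, and 3 of the 35-day libraries lay close together, with replicate 3 far below them. Pcsk2 averaged 33627 ± 4725 at 125 days and 19810 ± 4603 at 35 days (SD, n = 4 each). It rose 1.73-fold, a log2 change of 0.79 (SE 0.19, limma adjusted p = 0.0193; 95% interval 0.36 to 1.22). Without 35-day replicate 3 the change was smaller and its error too (log2 change 0.60, SE 0.11, limma adjusted p = 0.00333). The call was lost with the mean anterior lobe marker level as a covariate (log2 change 0.50, SE 0.23, limma adjusted p = 0.177) and without 125-day replicate 1 (0.0640) or 4 (0.0605).

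The ratio of Pcsk1 to Pcsk2 within a library does not depend on how libraries are scaled. It was 0.319, 0.336, 0.376 and 0.291 in the 4 libraries of 125 days, against 0.201, 0.170, 0.215 and 0.185 in those of 35 days. The ages were separate, and 35-day replicate 3, low for both genes, had the highest ratio of its age. The ratio averaged 0.331 ± 0.0356 at 125 days and 0.193 ± 0.0193 at 35 days (SD, n = 4 each), a 1.72-fold difference. In a two-sided exact permutation test this gave p = 0.0286, the smallest that 4 against 4 libraries allow, and 0.0714 after adjustment over 5 ratios, so it did not pass the correction.

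**Figure D2:**
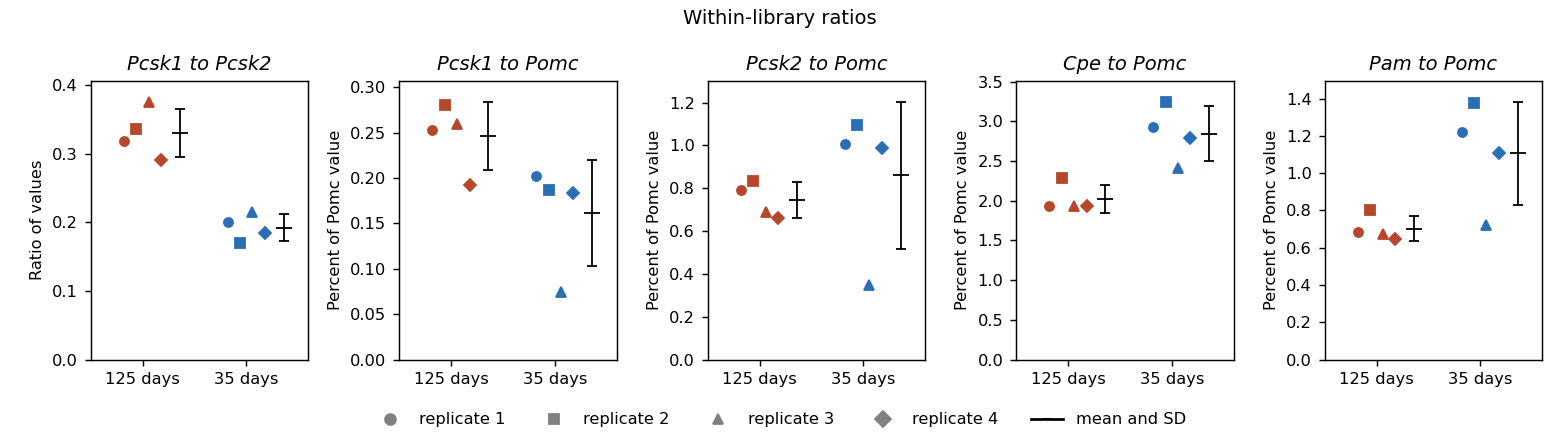
Ratio of 2 genes within each library (vertical axes from 0), for Pcsk1 to Pcsk2 as a plain ratio and for 4 enzyme genes as a percent of the Pomc value; 125 days in red, 35 days in blue, symbols for the replicate, bars for mean and SD. The ages are separate for Pcsk1 to Pcsk2 and for Cpe to Pomc, and the 35-day replicate 3 triangle is the lowest of its age in all 4 ratios to Pomc.

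Set against Pomc, the listed precursor with the most reads in these libraries, the enzyme genes gave unlike ratios. Cpe was 1.94, 2.29, 1.93 and 1.94% of the Pomc value at 125 days, against 2.92, 3.25, 2.41 and 2.79% at 35 days, with no overlap (0.714-fold; exact permutation p = 0.0286, adjusted 0.0714). Pam was 0.647 to 0.804% of Pomc at 125 days and 0.722 to 1.37% at 35 days (0.651-fold; exact permutation p = 0.0571, adjusted 0.0714). Pcsk1 was 0.193 to 0.280% of Pomc at 125 days, against 0.0747 to 0.202% at 35 days (1.62-fold; exact permutation p = 0.0571, adjusted 0.0714). Pcsk2 amounted to between 0.661 and 0.835% of Pomc at 125 days, against 0.348 to 1.10% at 35 days (0.944-fold; exact permutation p = 0.914). Without 35-day replicate 3 the ratio to Pomc at 125 days was 0.720-fold that of 35 days for Pcsk2, 1.28-fold for Pcsk1, 0.677-fold for Cpe and 0.570-fold for Pam. With all 8 libraries, none of the 5 ratios passed the correction. Leaving out 35-day replicate 3 gave an exact permutation p, not adjusted, of 0.0286 for Pcsk1 to Pcsk2 and for Pcsk2, Cpe and Pam to Pomc. That is the smallest p the remaining libraries allow. For Pcsk1 to Pomc it was 0.0857.

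The RNA of these enzymes and of Pomc could come from several cell types. Of the 8 intermediate lobe markers tested, Oacyl was called higher at 125 days and Neurod1 lower, while the transcription factor genes Pax7 and Tbx19 and the dopamine receptor gene Drd2 had log2 changes of -0.01 (SE 0.17), 0.26 (SE 0.17) and -0.03 (SE 0.15). With the mean log2 level of all 9 genes of this list as a covariate, the log2 change was 1.61 (SE 0.16) for Pcsk1 and 0.81 (SE 0.21) for Pcsk2. The 9 include Mc2r, not tested at 0 to 2.93 depth-normalized counts, so its scatter near the floor enters this covariate. Of the 10 anterior lobe markers, 4 were called lower at 125 days (Lhb, Fshb, Cga and Gnrhr) and none higher, where 8.87% of all genes were called lower. The summed depth-normalized counts of the 10 markers ran from 6508 to 50156 at 125 days and from 24266 to 1394210 at 35 days. With that list as a covariate, the log2 change of Pcsk1 was 1.30 (SE 0.17, limma adjusted p = 0.00145). The mean log2 level of that list ran from 7.17 to 9.27 at 125 days and from 8.78 to 13.7 at 35 days. It thus differed with age, so no fit with this covariate can fully separate anterior lobe level from age. The part of either cell type in these values was not tested beyond these fits.

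Cpe, whose product trims basic residues from the cut peptides, had 97418, 81278, 84491 and 102279 depth-normalized counts at 125 days, against 65776, 63574, 89791 and 62746 at 35 days. The 35-day replicate 3 lay inside the range of 125 days, and the other 3 libraries of 35 days lay below that range. The log2 change was 0.38 (SE 0.17, limma adjusted p = 0.150; 95% interval 0.01 to 0.76), and Cpe was not called. Without 35-day replicate 3 it was called higher at 125 days (log2 change 0.51, SE 0.12, limma adjusted p = 0.0106), in a fit that called 30.7% of all genes. It was 0.62 (SE 0.21) on the log2 scale with the anterior lobe level as covariate and 0.27 (SE 0.14) with the intermediate lobe level.

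Pam, the amidating enzyme gene, had 34467, 28571, 29468 and 34126 depth-normalized counts at 125 days, against 27402, 26882, 26889 and 24883 at 35 days. The ages did not overlap, although the gap between them was small, and 35-day replicate 3 was like its group here. The mean was 31658 ± 3072 at 125 days and 26514 ± 1114 at 35 days (SD, n = 4 each). The log2 change of 0.25 (SE 0.11, limma adjusted p = 0.154; 95% interval 0.00 to 0.50) did not pass the threshold. DESeq2 on the recovered reads gave the same size and called it (log2 change 0.25, SE 0.10, adjusted p = 0.0421).

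Qpct had the lowest read numbers of the 9 genes, 63 to 119 recovered reads per library. Its depth-normalized counts were 93.5, 105, 85.7 and 104 at 125 days, against 76.7, 86.8, 81.7 and 67.2 at 35 days. Of the 125-day libraries, 3 lay above all of 35 days, and replicate 3 lay among them. The log2 change was 0.31 (SE 0.15, limma adjusted p = 0.205; 95% interval -0.04 to 0.65), an interval that holds both 0 and the change measured for Cpe.

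Furin, the convertase of the trans-Golgi network, had 3540, 4499, 4035 and 4253 depth-normalized counts at 125 days, against 4488, 4978, 2895 and 4750 at 35 days. The libraries of the 2 ages overlapped, and the lowest of all was 35-day replicate 3. The log2 change was -0.04 (SE 0.17, limma adjusted p = 0.894; 95% interval -0.41 to 0.33). Without replicate 3 it was -0.22 (SE 0.08, limma adjusted p = 0.0766).

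Cpd encodes carboxypeptidase D, which trims furin products in the Golgi. It had 5269, 5686, 5282 and 4958 depth-normalized counts at 125 days, against 5336, 5399, 1696 and 5093 at 35 days. Apart from 35-day replicate 3, which had 0.321 times the mean of the other 3 libraries of its age, all values lay in 1 narrow range. The log2 change was 0.41 (SE 0.33, limma adjusted p = 0.426; 95% interval -0.31 to 1.14) with that library and 0.00 (SE 0.06; 95% interval -0.14 to 0.15) without it.

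Pcsk6 encodes PACE4, a convertase that is held at the cell surface and matrix. It had 335, 457, 519 and 371 depth-normalized counts at 125 days, against 472, 988, 1734 and 681 at 35 days. The 35-day libraries differed widely, and replicate 1 of that age lay inside the range of 125 days. The log2 change was -1.05 (SE 0.34, limma adjusted p = 0.0587; 95% interval -1.81 to -0.30). Pcsk6 was called lower at 125 days by edgeR (log2 change -1.21, adjusted p = 0.0384) and DESeq2 (-1.21, 0.00322), and without 35-day replicate 3 (log2 change -0.72, SE 0.23, limma adjusted p = 0.0414). The order of the 35-day libraries in Pcsk6 was also their order in the anterior lobe share of reads, 0.0695% in replicate 1, 0.439% in replicate 4, 0.658% in replicate 2 and 3.83% in replicate 3. At 125 days the orders differed: the anterior lobe share was 0.0724, 0.0185, 0.140 and 0.125% in replicates 1 to 4, and replicate 2, with the least, was second highest in Pcsk6. When the fit held the anterior lobe level as a covariate, the log2 change was -0.26 (SE 0.30, limma adjusted p = 0.601). The part of anterior lobe RNA in the Pcsk6 values was not tested beyond this fit, whose covariate itself differed between the ages.

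Pcsk5, encoding PC5/6, a relative of PACE4, had 311, 255, 243 and 333 depth-normalized counts at 125 days, against 211, 327, 409 and 299 at 35 days. The ages overlapped fully. Its log2 change was -0.10 (SE 0.20, limma adjusted p = 0.784; 95% interval -0.54 to 0.35), and its sign turned without 35-day replicate 3 (0.05).

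**Figure D3:**
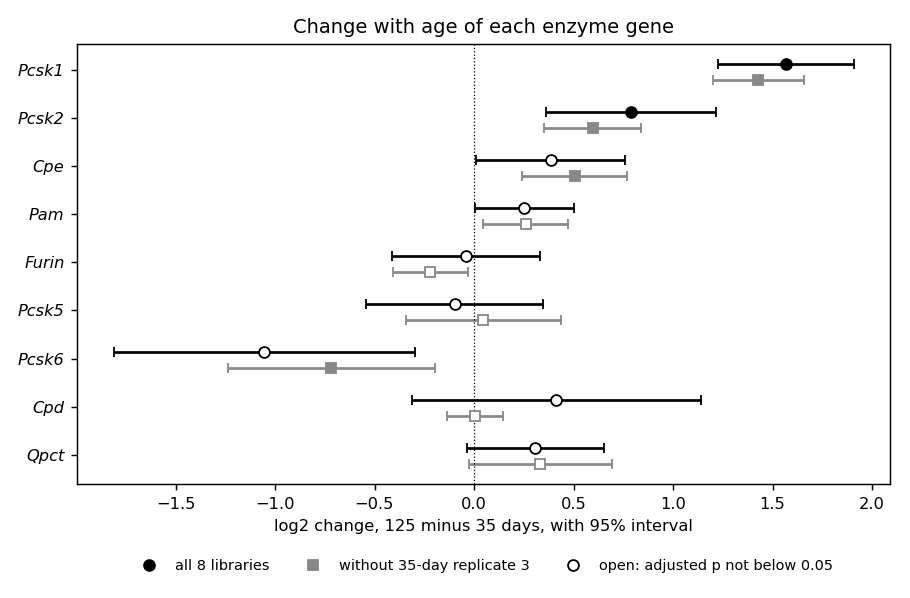
log2 change, 125 minus 35 days, of each enzyme gene with its 95% interval (horizontal axis), from the fit on all 8 libraries (black circles) and without 35-day replicate 3 (grey squares); filled symbols passed an adjusted p of 0.05. Pcsk1 stands at 1.57 and Pcsk2 at 0.79, and leaving out the replicate moved Cpd to 0.00 and narrowed the intervals of 8 of the 9 genes.

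The spread within an age differed between the genes. At 125 days the coefficient of variation ran from 5.63% for Cpd to 19.8% for Pcsk6. At 35 days it was 4.20% for Pam, 10.7% for Qpct, 41.0% for Cpd and 57.0% for Pcsk6, and without replicate 3 it was 3.06% for Cpd and 2.45% for Cpe. In 35-day replicate 3, Pcsk1, Pcsk2 and Furin were 0.678, 0.586 and 0.611 times the mean of the other 3 libraries, while Cpe, Pcsk5 and Pcsk6 were 1.40, 1.47 and 2.43 times that mean. Pam and Qpct were close to it, at 1.02 and 1.06 times. Among the 125-day libraries, replicate 2 was the lowest for Cpe, Pam, Pcsk1 and Pcsk2 and also for Pomc, and the highest for Furin and Cpd.

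**Figure D4:**
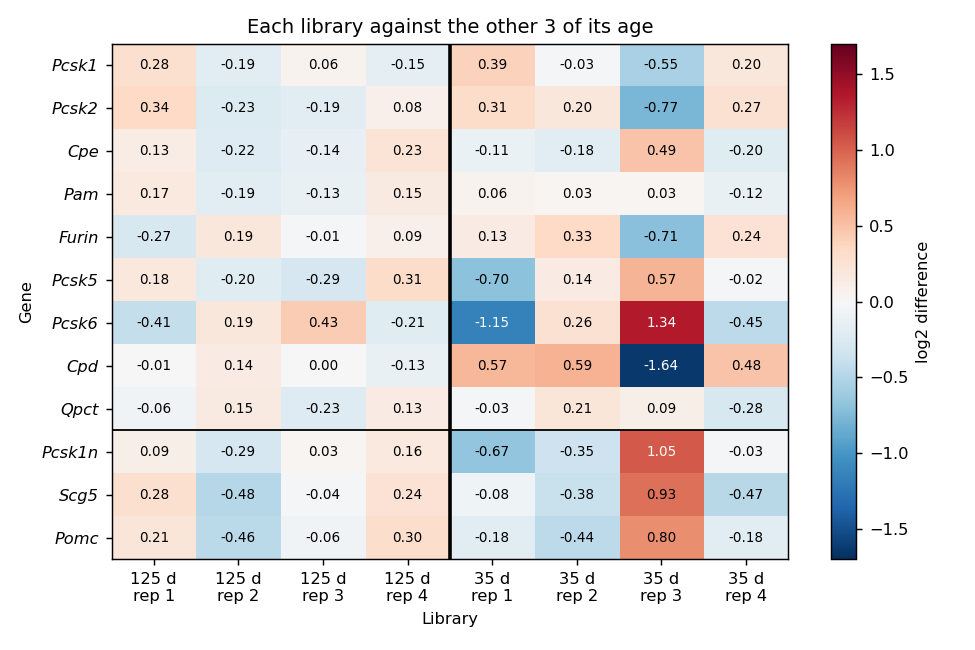
log2 difference of each library (columns; 125 days left of the black line, 35 days right of it) from the mean of the other 3 libraries of its age, for the 9 enzyme genes, the convertase partners Pcsk1n and Scg5, and Pomc (rows); red is higher, blue lower. In 35-day replicate 3, Cpd stood at -1.64 and Pcsk2 at -0.77, while Pcsk1n stood at 1.05.

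The binding partners of the granule convertases were measured beside them. Pcsk1n encodes proSAAS, an inhibitor of PC1/3, and had 34371, 28207, 33200 and 35631 depth-normalized counts at 125 days, against 17431, 20647, 42618 and 24338 at 35 days. Scg5 encodes 7B2, which PC2 needs to become active, and had 20299, 13704, 17221 and 19915 at 125 days, against 13473, 11516, 22763 and 10976 at 35 days. In both, 35-day replicate 3 was the highest of all 8 libraries and the other 3 libraries of 35 days lay below all of 125 days. Neither was called (Pcsk1n log2 change 0.40, SE 0.24, limma adjusted p = 0.290; Scg5 0.32, SE 0.23, 0.368). Without 35-day replicate 3 both were called higher at 125 days (Pcsk1n 0.67, limma adjusted p = 0.00364; Scg5 0.56, 0.0130).

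Of 33 other genes of peptide processing in 5 lists, 32 could be tested, and their median log2 change was 0.04. Of these, 2 were called higher and 3 lower, against 8.85 and 8.87% of all genes tested. Without 35-day replicate 3 the counts were 4 and 7, in a fit that called 30.7% of all genes. Among the other convertase genes, Pcsk4, known mainly from germ cells, was called higher (201 ± 18.4 at 125 days and 139 ± 12.1 at 35 days, SD, n = 4 each; log2 change 0.53, SE 0.13, limma adjusted p = 0.0211). This call was lost in 7 of 22 alternatives. The site-1 protease gene Mbtps1 had a log2 change of 0.00 (SE 0.10). Of 6 other carboxypeptidase genes, Cpxm2, whose product lacks residues needed for catalysis, fell (1017 ± 227 at 125 days and 1707 ± 292 at 35 days, SD, n = 4 each; log2 change -0.76, SE 0.18, limma adjusted p = 0.0154), a call kept in all 22 alternatives.

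None of 7 genes that serve amidation or cyclization was called. They include Cyb561, which passes electrons into granules for Pam (log2 change 0.14, SE 0.09), the copper transporter genes Atp7a (0.06, SE 0.20) and Slc31a1 (0.23, SE 0.10), and the second glutaminyl cyclase gene Qpctl (0.02, SE 0.10). Rassf9, a binding partner of the Pam tail, had a log2 change of -0.66 (SE 0.23, limma adjusted p = 0.0819), and was called lower without 35-day replicate 3 (-0.91, limma adjusted p = 0.00117). Of 14 other peptidase genes, Dpp4, which removes N-terminal dipeptides, was called higher (log2 change 0.55, SE 0.17, limma adjusted p = 0.0445). Enpep, encoding aminopeptidase A (log2 change -0.69, SE 0.16, limma adjusted p = 0.0170), and Prcp, which removes a residue after proline (-0.40, SE 0.12, 0.0491), were called lower. The Dpp4, Enpep and Prcp calls were lost in 14, 4 and 11 of 22 alternatives. Lnpep, the aminopeptidase that inactivates oxytocin and vasopressin, had a log2 change of 0.11 (SE 0.17, limma adjusted p = 0.695).

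**Figure D5:**
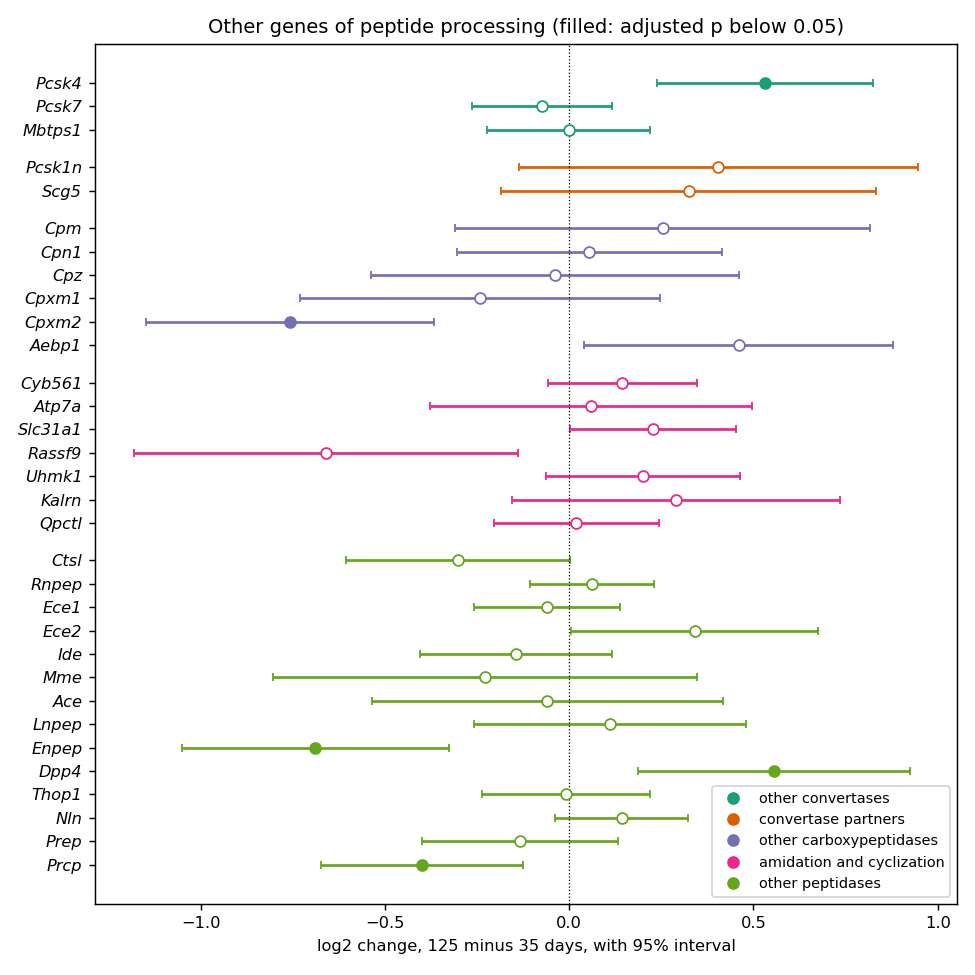
log2 change, 125 minus 35 days, with 95% interval (horizontal axis) of the 32 other peptide processing genes that could be tested, coloured by list; filled symbols passed an adjusted p of 0.05. Pcsk4 and Dpp4 are filled on the right of 0, and Cpxm2, Enpep and Prcp on the left.

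Precursors that these enzymes cut gave varied changes. Of 12 precursors of the regulated secretory pathway, 11 could be tested, 4 rose (Pdyn, Penk, Oxt and Chgb) and Vgf fell, where 17.7% of all genes were called. The median log2 change of the list was -0.23 with all libraries and 0.14 without 35-day replicate 3, so its sign rested on that library. Fitted with the anterior lobe covariate, the median was 0.52. Pdyn, the prodynorphin gene, had 6842, 5487, 6667 and 6801 depth-normalized counts at 125 days, against 1172, 1155, 1313 and 1415 at 35 days, a 5.10-fold rise. The log2 change of Pdyn was 2.35 (SE 0.11). Oxt, the oxytocin gene, had a log2 change of 0.82 (SE 0.21, limma adjusted p = 0.0235), while Avp had a log2 change of -0.24 (SE 0.22). Pomc, whose 35-day replicate 3 lay above the lowest library of 125 days, had a log2 change of 0.87 (SE 0.57, limma adjusted p = 0.333). Without that replicate the log2 change was 1.07 (SE 0.65, limma adjusted p = 0.244). With all libraries, Pomc was called higher by edgeR (adjusted p = 0.0478), DESeq2 (0.00127) and by limma without the intensity trend (0.0286). Without that trend its SE was 0.22, so the SE of 0.57 rests largely on the trend and not on the spread of Pomc itself. The calls of Penk, Oxt, Chgb and Vgf were lost in 8, 7, 1 and 8 of 22 alternatives, and the anterior lobe covariate moved the log2 change of Vgf to -0.59 (SE 0.45), against -1.64 (SE 0.48) without it, and that of Chgb to 1.97, against 1.25.

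Of 12 precursors or receptors that furin-like convertases cut, Bdnf rose and Igf1, Igf2, Mmp14 and Tgfb1 fell, with a median log2 change of -0.46. Bdnf, a neurotrophin whose precursor furin and PC1/3 can cut, had 1480, 1188, 1357 and 1402 depth-normalized counts at 125 days, against 464, 366, 454 and 301 at 35 days. Igf1 and Igf2, which encode insulin-like growth factors, went the other way, with log2 changes of -1.32 (SE 0.19) and -1.34 (SE 0.16), beside a Furin change of -0.04 (SE 0.17). The Mmp14 and Tgfb1 calls were lost in 5 and 10 of 22 alternatives. Markers of vascular and connective cells moved beside them: 4 of 5 fibroblast markers were called lower at 125 days, with summed depth-normalized counts of 18298 to 29032 at 125 days and 44066 to 56198 at 35 days. Of 10 endothelial markers 7 were called lower (sums of 14263 to 27881 at 125 days and 22589 to 31440 at 35 days), and of 6 mural markers 5 were called lower and 1 higher (8480 to 11339 at 125 days and 8307 to 13821 at 35 days). The mural sums include Myh11, the 1 called higher, with a mean of 4728 at 125 days and 2891 at 35 days. Of 6 microglia markers 3 were called lower and 1 higher (5289 to 8119 at 125 days and 6819 to 9036 at 35 days), and of 12 pituicyte markers 3 were called lower and 1 higher (59503 to 85954 at 125 days and 76478 to 120637 at 35 days). With all 8 libraries, 8.85% of all genes tested were called higher and 8.87% lower. With 35-day replicate 3 left out, 7 pituicyte and 5 fibroblast markers were called lower, where 14.8% of all genes were. A marker that was not called is not thereby shown to be equal between the ages. The part of these cells in the precursor values was not tested.

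The genes whose profile over the 8 libraries lay nearest to each called enzyme were found among 12798 tested genes with a mean of at least 100, by the root mean square difference of log2 values after each gene's own mean was subtracted. Nearest to Pcsk1 were Gda (guanine deaminase, 0.101 log2 units), Prune2 (0.125) and Slc4a10 (a bicarbonate transporter, 0.136). Nearest to Pcsk2 were Stk26 (a kinase gene, 0.0703), Syn1 (synapsin I of synaptic vesicles, 0.0744) and Grik2 (a kainate receptor subunit, 0.0752). Among the 9 enzyme genes themselves, Pam and Qpct (0.136) and Cpe and Pam (0.159) were the nearest pairs, and Pcsk1 and Pcsk6 (1.49) the farthest apart. The 8 libraries share an age contrast and the anterior lobe level, so nearness describes these libraries only.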

How the data were processed

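Poly(A)-selected libraries were made from total RNA with an NEBNext Ultra II kit, per the labels' protocols. The values in the deposited table are a signal scaled for depth. Multiplied by a size factor recovered for each library, 100% of them came out as whole reads (tolerance 0.001 reads), so the authors had scaled whole read counts. Build rn7 and the tools DESeq2 1.34.0, Subread 2.0.1 with featureCounts, SAMtools 1.13, HISAT2 2.2.1 and Trimmomatic 0.39 are named in the submitters' processing notes; which annotation was counted, and whether by strand, is not given in the sources used here, so overlapping or antisense genes cannot be told apart. The 2 columns of the authors' means were not used.

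Testing was limited to genes reaching 10 in 4 or more libraries and was done with limma 3.58.1 (R 4.3.3, intensity trend) on log2(value + 1), which understates changes of low genes; 1 fit covered all genes, with age as its only term. Alternatives were pseudocounts, filters, scalings, no trend, library weights, 2 count tests of the recovered reads (DESeq2 1.42.0 and edgeR 4.0.16), marker levels as covariates, the replicate block and omission of single libraries. List counts without 35-day replicate 3 were chosen after seeing the data. The members and lists were chosen with earlier results of these data known. Named are the 9 members, other list genes that passed the threshold, 5 precursors, and the 3 nearest profiles of each called member; other genes named were chosen after their values were seen. The test was tried on simulated data first. Recovered reads are not unique molecules, and no transcript length was used. Ratios and shares of different genes are therefore of reads and not of transcript numbers, and only their change between libraries was compared. Figures were drawn with matplotlib 3.10.9.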

Additional observations from a re-analysis of the deposited data

Results flagged for a closer look

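Of 28 sets of 4 libraries examined (9 genes and 5 ratios at each age), 6 had 1 library farther from the others than Dixon's test allows at the 95% level. Chance gives about 1 in 20 for independent sets, but these sets share libraries and the ratios share genes. The rates therefore cannot be compared directly. At 35 days, replicate 3 had 12949 depth-normalized counts of Pcsk2, below the 21432 to 22669 of the other 3 libraries, and 1696 of Cpd, below their 5093 to 5399. It had 89791 of Cpe, above their 62746 to 65776. Its Pcsk1 value was 0.0747% of Pomc, below 0.183 to 0.202%, and its Pcsk2 value 0.348% of Pomc, below 0.988 to 1.10%. At 125 days, replicate 2 had a Cpe value of 2.29% of Pomc, above the 1.93 to 1.94% of the other 3 libraries. The anterior lobe markers took 3.83% of the reads of 35-day replicate 3, and their part in its values was not tested.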

How the results depend on the processing

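Over 22 alternative fits, the number of the 9 enzyme genes called higher at 125 days stayed within 1.5 times the 2 reported in all fits but those with the anterior lobe covariate (1), with library weights (4) and without 1 library (1 to 3). The number called lower was 0, but 1 by DESeq2, by edgeR, with the replicate block and with scaling to equal totals, 2 with library weights, and 0 to 1 without 1 library. All genes called numbered 3174, but 7892 with library weights, where 35-day replicate 3 had a weight of 0.100, and 1894 to 5495 without 1 library; the cause was not tested. The fit without 35-day replicate 3 gave 5495, and those without 125-day replicates 1, 3 and 4 gave 1978, 1948 and 1894. With library weights Cpe (adjusted p = 0.00197), Pam (0.0205) and Furin (log2 change -0.25, 0.0270) were called by limma, and Pcsk6 (0.00216), which was also called with equal totals (0.0475) and without 35-day replicate 1 (log2 change -1.34, 0.0189). The direction of Furin, Pcsk5 and Cpd, none of them called in the reported fit, differed between fits: log2 changes ran from -0.34 to 0.06, -0.27 to 0.36 and -0.29 to 0.61. Whether the replicate numbers pair the libraries is not labelled. The deviations of same-numbered libraries correlated at 0.04, 0.17, -0.00 and -0.12, which cannot settle it. With the replicate block the Pcsk6 log2 change was -1.05 (limma adjusted p = 0.0129), and Pcsk1 and Pcsk2 remained called. With the ratios paired by number the smallest exact p was 0.125, which 4 pairs cannot go below. Qpct, with 63 to 119 reads per library, had the least depth of the 9 genes.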
